A study of Drosophila melanogaster with 16 samples.

Results

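The cells described here were the neurons of the sorted fly brain cells that held the glutamate transporter transcript VGlut but no transcript of the clock genes Clk and tim. A cell was taken if it had 3000 or more UMIs in all (a UMI counts 1 captured transcript), 0 UMIs of Clk and tim, 3 or more VGlut UMIs, and 0 UMIs of both VAChT, the vesicular acetylcholine transporter, and Gad1, the enzyme that makes GABA. The cells were thus selected on their own counts of these 5 genes and on depth, and differences in these genes are not findings. The rule found 894 cells, called VGlut cells below, among 6387 cells with 3000 or more UMIs and no Clk or tim UMI, 17507 cells with 3000 or more UMIs and 23921 cells in the table. The remaining 5493 cells without Clk and tim UMIs, called the other cells, were the main comparison. Further comparisons were made with 2451 VGlut clock cells, which passed the same transmitter gate and had 3 or more UMIs of Clk and tim together, with 1770 VAChT cells (3 or more VAChT UMIs, 0 of VGlut, Gad1, Clk and tim) and with 359 Gad1 cells (3 or more Gad1 UMIs, 0 of VGlut, VAChT, Clk and tim).

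All single cells came from adult brains in which Clk856-GAL4 and the split pair of R11B03-AD and VT002670-DBD drove UAS-EGFP, dissected in a light-dark cycle at ZT02, ZT06, ZT10, ZT14, ZT18 and ZT22 (hours after lights on). Male and female brains were pooled in equal numbers, dissociated in saline with inhibitors of neuronal activity, and sorted for EGFP and a nuclear dye. The drivers are a GAL4 line with a fragment of Clk and a split GAL4 pair with fragments of the clock genes cwo and vri, so that EGFP marks cells in which these fragments are active, whether or not Clk and tim were captured. There were 10 libraries, with 2 replicates at ZT02, ZT06, ZT14 and ZT22 and 1 at ZT10 and ZT18; all 10 carried the same genotype, and the labels call every sample clock neuron. The 6 bulk samples of other drivers were not used.

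In the fly, glutamate is the transmitter of motor neurons and of many central neurons, and in the brain it can inhibit as well as excite, depending on the receptor of the receiving cell. VGlut loads it into synaptic vesicles. Neurons can also load an amine into vesicles through Vmat, the vesicular monoamine transporter. Tyramine is made from tyrosine by Tdc2, the neuronal tyrosine decarboxylase, and octopamine is made from tyramine by Tbh, tyramine beta-hydroxylase. Dopamine takes another route, through the tyrosine hydroxylase ple and the decarboxylase Ddc, and is taken up again by DAT.

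The libraries held 421 to 5751 cells and 25 to 313 VGlut cells each. VGlut cells were 8.02% to 19.8% of the cells without Clk and tim UMIs (median 14.7%, n = 10 libraries). Their median depth was 7398 UMIs, against 6129 in the other cells. ZT02 replicate 2 alone gave 313 of the VGlut cells and ZT02 replicate 1 gave 25, so values of ZT02 replicate 1 rest on few cells. Of 110 cells whose barcode occurred in more than 1 library, 4 were VGlut cells. Because members of a library share its depth and its background RNA, each comparison was made over libraries, on the UMIs summed per library and cell group, and levels are given as UMIs per 10000 UMIs of the summed cells (TP10K). In such sums more cells with a transcript and more transcript per cell cannot be told apart, and the counts per cell are given where this matters.

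VGlut itself, which the rule used, ranged from 25.5 to 42.0 TP10K over the libraries in VGlut cells (median 32.5), against 2.08 to 6.43 TP10K in the other cells and 21.01 to 33.0 TP10K in VGlut clock cells. Within single VGlut cells there were 3 to 201 VGlut UMIs, with a median of 19. At the edge of the rule stood 35 cells with 3 VGlut UMIs and 37 with 4, just inside, and 31 cells with 2 and 61 with 1, just outside. The cells just inside held 0.717 and 0.866 TP10K of ChAT, choline acetyltransferase, and those just outside 0.291 and 0.0700 TP10K, against 0.179 TP10K in the 822 cells with 5 or more. The cells just outside, which count among the other cells, also held much Vmat and Tdc2. Vmat was 214 and 353 TP10K just inside and 252 and 152 TP10K just outside. It was 191 TP10K at 5 or more VGlut UMIs and 49.96 TP10K at 0. In the same order Tdc2 was 4.44, 5.59, 4.43, 2.87, 6.93 and 0.167 TP10K. Another 461 cells had 3 or more VGlut UMIs but were left out for a UMI of VAChT (447 cells) or Gad1 (19 cells), 5 of them for both. The 9 pan-neuronal markers summed to 216 to 271 TP10K in VGlut cells, against 128 to 186 TP10K in the other cells, and 4 of 894 VGlut cells held a UMI of repo, the glial transcription factor.

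Against the other cells, VGlut cells stood out by the genes of tyramine and octopamine. Tdc2 was 31.7-fold higher, Tbh 7.16-fold, Vmat 6.39-fold and the amino acid transporter JhI-21 6.56-fold, while the dopamine genes ple and DAT were 48.4-fold and 77.9-fold lower. Of 7868 genes tested, 1369 were called (17.4%; edgeR quasi-likelihood test with the library as a block, Benjamini-Hochberg adjusted p under 0.05 and a change of 2-fold or more), of which 128 were higher (1.63%) and 1241 lower (15.8%). Glial markers moved with this excess of lower genes. All 7 tested markers of glia were lower in VGlut cells, and the 8 glial markers summed to 0.175 to 11.5 TP10K in VGlut cells, against 11.8 to 49.6 TP10K in the other cells. Of 6 photoreceptor markers 5 were lower, and they summed to 0 to 0.167 TP10K in VGlut cells, against 0.203 to 18.7 TP10K in the other cells. Of the other cells, 4361 (79.4%) had 3 or more UMIs of the synaptic vesicle gene nSyb, as had 884 of the 894 VGlut cells. Against those 4361 alone, a comparison added after the glial markers had been seen, 355 of 7027 genes were called (5.05%), 100 higher (1.42%) and 255 lower (3.63%). Of these, 74 higher and 230 lower genes were called against all other cells as well, and 2 genes were called in opposite directions. Values below are against all other cells unless the neuronal other cells are named. The calls for Tdc2, Tbh, Vmat, Pu, DAT, ple, SerT and prt were made with both references.

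Tdc2 (2R:6684745-6689974, minus strand, dm6) had 3.40 TP10K in the lowest library of the VGlut cells, a median of 7.995 and 9.82 in the highest, against 0, 0.195 and 0.537 TP10K in the other cells. The groups did not overlap in any library, as was true of 7.27% of the genes tested, and the difference was 4.99 ± 0.30 on the log2 scale (SE, adjusted p = 5.87e-09, edgeR). Against the neuronal other cells it was 4.66. Vmat (2R:13513132-13534251, minus strand) had 57.8, 204 and 317 TP10K (lowest, median, highest) in VGlut cells, against 0.543, 30.9 and 50.3 TP10K in the other cells. The groups did not overlap, and ZT02 replicate 1 was the highest library of the VGlut cells and the lowest of the other cells. Its log2 difference was 2.68 ± 0.48 (adjusted p = 0.000310, edgeR). Tbh (X:7995697-8027394, plus strand) had 0.616, 10.4 and 26.1 TP10K in VGlut cells, against 0.762, 1.27 and 1.57 TP10K in the other cells. It was higher in 9 of 10 libraries, the exception being ZT14 replicate 1, with a log2 difference of 2.84 ± 0.36 (adjusted p = 1.05e-05, edgeR).

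**Figure D1:**
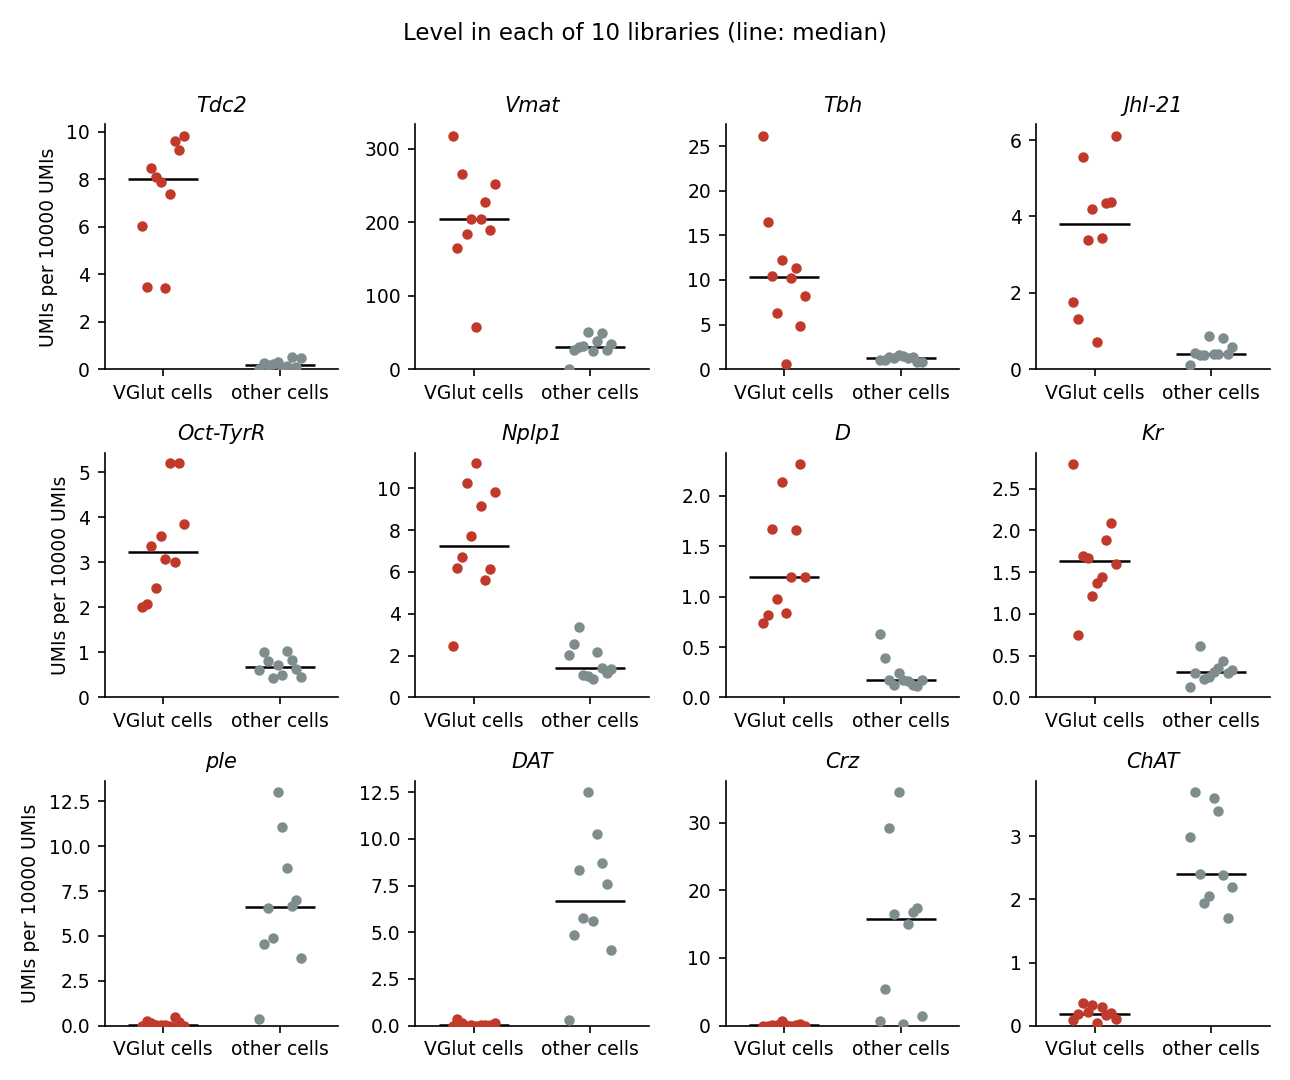
Level of 12 genes (UMIs per 10000 UMIs, linear axes from 0) in VGlut cells (red, left) and the other cells without Clk and tim UMIs (grey, right); each point is 1 of 10 libraries and the line is the median. The groups do not overlap for Tdc2, Vmat, Oct-TyrR, D, Kr and ChAT; the VGlut cells are lower for ple, DAT, Crz and ChAT in every library.

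The amine genes were the only transmitter list in which members were called in both directions against the other cells. Of its 10 tested genes, 5 were higher (Tdc2, Tbh, Vmat, Hdc and Pu) and 4 lower (DAT, ple, SerT and prt), with a median log2 difference of 0.58, against -0.04 over all genes. Of all genes 1.63% were higher and 15.8% lower. Pu, the GTP cyclohydrolase of pterin synthesis, was 1.73 ± 0.15 higher on the log2 scale (adjusted p = 2.44e-07, edgeR). Hdc, histidine decarboxylase, was called (adjusted p = 0.0450, edgeR), but its 367 UMIs in VGlut cells lay in 5 cells, and it was not called against the neuronal other cells. DAT (0, 0.0301 and 0.357 TP10K in VGlut cells, against 0.326, 6.68 and 12.5 TP10K in the other cells) and ple (0, 0.0496 and 0.492 TP10K in VGlut cells, against 0.346, 6.61 and 13.0 TP10K in the other cells) were lower in 10 of 10 libraries. SerT, the serotonin transporter, was 3.63 ± 0.64 lower on the log2 scale (adjusted p = 0.000341, edgeR). Of the cholinergic genes outside the rule, ChT and ChAT were lower. The rule set VAChT, another cholinergic gene, to 0, and ChAT shares its locus with VAChT. Neither difference is thus given as independent of the choice of cells. Among the GABA genes VGAT had a log2 difference of -0.24 ± 0.15 (adjusted p = 0.227, edgeR).

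Per cell, Vmat was close to all or none. Of the 894 VGlut cells, 210 (23.5%) held 10 or more Vmat UMIs, 30 held 1 to 9 and 654 held 0. This cut was set after the counts had been seen. The 210 cells held 45 to 2512 Vmat UMIs, with a median of 607, and 99.98% of the Vmat UMIs of all VGlut cells. Their share was 12.1% to 38.5% of the VGlut cells in the 10 libraries, against 0.826% to 14.02% of the other cells, and it was higher in VGlut cells in every library. With each cell thinned to 3000 UMIs the shares were 23.5% of VGlut cells, 7.59% of the other cells, 9.40% of the neuronal other cells, 0.565% of VAChT cells and 0.0408% of VGlut clock cells.

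Nearly all Vmat-rich VGlut cells carried Tdc2. A Tdc2 UMI was present in 203 of 210 (96.7%), against 20 of 654 VGlut cells without Vmat UMIs (3.06%), 104 of 446 Vmat-rich cells among the other cells (23.3%) and 12 of 1770 VAChT cells (0.678%), which is given as the background level (median 6007 UMIs a cell). A ple UMI was present in 3 of 210 (1.43%), against 293 of the 446 Vmat-rich other cells (65.7%). Summed per library, Vmat-rich VGlut cells held 11.8 to 24.6 TP10K of Tdc2 and 0 to 0.954 TP10K of ple, against 0.446 to 4.63 TP10K of Tdc2 and 33.5 to 93.6 TP10K of ple in the Vmat-rich other cells (n = 9 libraries with 5 or more such cells in each). These cells were deep: their median was 13503 UMIs, against 6016 UMIs in VGlut cells without Vmat and 9855 UMIs in Vmat-rich other cells. A capture of 2 cells in 1 droplet raises depth, and its part in these counts was not tested. Among VGlut cells of 15000 or fewer UMIs, 127 of 770 were Vmat-rich (16.5%), of which 124 held Tdc2 (97.6%), and above 15000 UMIs 83 of 124 were (66.9%), of which 79 held Tdc2 (95.2%). With cells above 15000 UMIs left out of both groups, the log2 difference from the other cells was 4.75 for Tdc2, 2.64 for Vmat and 1.73 for Tbh.

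**Figure D2:**
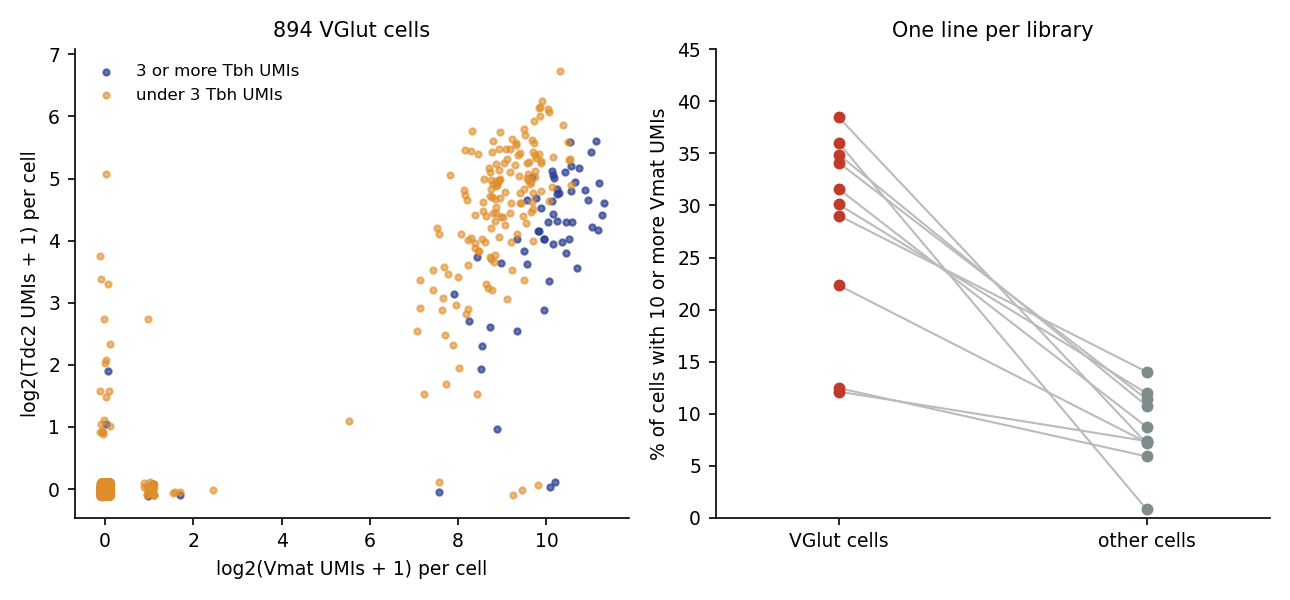
Left, Vmat against Tdc2 in each of 894 VGlut cells, as log2(UMIs + 1) with a small random shift so that points do not hide each other, in blue where the cell held 3 or more Tbh UMIs. Right, percent of cells with 10 or more Vmat UMIs in VGlut cells and in the other cells, with a line for each of the 10 libraries; the VGlut cells are higher in each, at 12.1% to 38.5%.

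Most of the Vmat-rich cells fell into a set with Tbh and a set without. In 53 of the 210, seen in 9 libraries, there were 3 or more UMIs of both Tdc2 and Tbh. In 141, seen in 10 libraries, there were 3 or more of Tdc2 and 0 of Tbh. The remaining 16 cells were in neither set, and 3 of them had 3 or more Tbh UMIs but 0 of Tdc2. The set with Tbh had 105 TP10K of Tbh, 831 of Vmat, 13.98 of Tdc2 and 7.43 of VGlut, and the set without had 0 of Tbh by its choice, 446 of Vmat, 22.3 of Tdc2 and 19.3 of VGlut. Transcription factors divided the sets. The wing selector gene vg stood at 9.33 TP10K in the set with Tbh and 0 in the set without, while Fer2, a bHLH factor known from dopaminergic neurons, stood at 0 TP10K in the set with Tbh and 4.61 in the set without, and the SoxB factor D (Dichaete) at 0.0128 TP10K in the set with Tbh and 4.05 in the set without. JhI-21 was at 1.42 TP10K in the set with Tbh and 12.3 TP10K in the set without. The peptide gene AstA reached 10 or more UMIs in 31 of the 141 cells without Tbh and in 0 of the 53 with it, which allows a share of up to 5.66%. These levels describe cells that were sorted by their own counts, and no test was made between the sets.

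Ddc stood at 0.0381 to 1.96 TP10K in the Vmat-rich VGlut cells (n = 9 libraries), against 3.95 to 9.53 TP10K in the 654 VGlut cells without Vmat (n = 10) and 11.8 to 21.4 TP10K in the Vmat-rich other cells (n = 9). Tbh was present in both, since 235 of 654 cells without Vmat (35.9%) held a Tbh UMI, as did 422 of 1770 VAChT cells (23.8%), but at 1.32 ± 0.56 TP10K, against 29.0 ± 19.1 TP10K in the Vmat-rich VGlut cells (SD over 10 and 9 libraries).

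Among transcription factors of neuronal lineages, 107 were tested against the other cells, and 11 were higher and 37 lower, with a median log2 difference of -0.45; of all genes 1.63% were higher and 15.8% lower. The higher ones were dmrt99B, D, Fer2, gl, CG4328, grn, Dr, fd59A, lov, tj and zfh2. Against VGlut clock cells dmrt99B, Fer2, CG4328, grn, fd59A, lov and zfh2 were called higher as well, but gl, D and Dr were called lower. Against the neuronal other cells the counts were 11 higher and 35 lower of 99, where 1.42% of all genes were higher and 3.63% lower. The DM domain factor dmrt99B had 0.290, 0.607 and 1.31 TP10K in VGlut cells, against 0.0143, 0.0355 and 0.0598 TP10K in the other cells (log2 difference 3.83 ± 0.21, adjusted p = 1.96e-09, edgeR). Within the VGlut cells dmrt99B was at 1.52 ± 0.37 TP10K in the Vmat-rich cells (SD, n = 9) and 0.101 ± 0.063 TP10K in those without Vmat (n = 10). D had 1.36 ± 0.56 TP10K in VGlut cells and 0.231 ± 0.163 TP10K in the other cells (SD, n = 10; log2 difference 2.62 ± 0.29). Sox21b, its relative, had 1.04 ± 0.25 TP10K in VGlut cells and 0.189 ± 0.129 TP10K in the other cells (2.53 ± 0.24). Kr, a zinc finger factor first known from the early embryo, had 1.65 ± 0.55 TP10K in VGlut cells and 0.321 ± 0.131 TP10K in the other cells (2.19 ± 0.19), and gl (glass), known from photoreceptors and dorsal clock neurons, had 0.415 ± 0.224 TP10K in VGlut cells and 0.0883 ± 0.0712 TP10K in the other cells (2.28 ± 0.24). Most factors of the list marked few cells. Of 894 VGlut cells, 867 held 3 or more UMIs of jim, 696 of chinmo and 660 of mamo, while D had this in 138, Fer2 in 106, dmrt99B in 68 and gl in 57. A cut at 3 UMIs is met more often in deep cells, and the Vmat-rich cells were deeper. With each cell thinned to 3000 UMIs, D was found at this level in 10.5% of Vmat-rich VGlut cells, against 4.13% of VGlut cells without Vmat (43.8% and 6.73% unthinned). Fer2 was found in 10.95% of the Vmat-rich cells, against 0% of those without Vmat (50% and 0% unthinned), and gl in 0% of the Vmat-rich cells, against 1.53% of those without Vmat (0% and 8.41% unthinned). With 654 and 210 cells, a count of 0 allows a share of up to 0.459% for Fer2 and 1.43% for gl, by counting error alone.

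Factors on the lower side included exex, acj6, Lim3 and toy. The POU factor acj6, known from olfactory and cholinergic neurons, had 0.0252 ± 0.0546 TP10K in VGlut cells, against 0.448 ± 0.343 TP10K in the other cells (SD, n = 10) (log2 difference -4.58 ± 0.30, adjusted p = 1.46e-08, edgeR). The homeobox factor exex had 1 UMI in all VGlut cells together, against 252 UMIs in the other cells (-5.23 ± 0.49).

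Of 13 glutamate receptors, 5 were higher (mtt, Grik, GluRIB, Ekar and GluRIA) and 1 lower (GluRIIA), with a median log2 difference of 0.68, where 1.63% of all genes were higher and 15.8% lower. Of these, mtt and Grik were also called higher against the neuronal other cells. Against VGlut clock cells mtt was not called and Grik was called lower. The metabotropic receptor gene mtt had 1.28, 1.79 and 2.73 TP10K in VGlut cells, against 0.283, 0.516 and 0.669 TP10K in the other cells (log2 difference 1.87 ± 0.18, adjusted p = 6.86e-07, edgeR). Of 12 acetylcholine receptors 2 were called, both lower, of which only nAChRalpha7 was called against the neuronal other cells. Of 7 GABA receptors 1 was called, Grd, which was lower; its call was lost against the neuronal other cells (log2 difference -0.86, adjusted p = 0.0530, edgeR). Among 18 amine receptors 3 were higher and 4 lower. Against the neuronal other cells 2 and 4 of 18 were, where 1.42% of all genes were higher and 3.63% lower, and Dop1R2 was no longer called. Oct-TyrR, a receptor for octopamine and tyramine, had 2.01, 3.22 and 5.19 TP10K in VGlut cells, against 0.428, 0.675 and 1.03 TP10K in the other cells, and was 2.16 ± 0.16 higher on the log2 scale (adjusted p = 5.33e-08, edgeR). Its level was 3.09 ± 1.201 TP10K in the Vmat-rich VGlut cells (SD, n = 9) and 3.63 ± 1.32 TP10K in those without Vmat (n = 10), a difference smaller than the spread. The serotonin receptors 5-HT1A and 5-HT1B were lower by 1.44 ± 0.15 and 1.36 ± 0.11 on the log2 scale, and Octbeta2R was lower by 1.96 ± 0.20. Of 38 peptide receptors 7 were higher and 7 lower, where 1.63% of all genes were higher and 15.8% lower. Against the neuronal other cells 4 and 4 of 36 were, where 1.42% of all genes were higher and 3.63% lower. The higher ones that were also called against the neuronal other cells were CapaR, RYa-R, Lgr1 and AstA-R1.

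Of 90 genes for axon guidance and adhesion, 11 were higher and 7 lower, where 1.63% of all genes were higher and 15.8% lower. Against the neuronal other cells 4 were higher and 9 lower of 90, where 1.42% of all genes were higher and 3.63% lower. The immunoglobulin proteins klg (means of 11.4 TP10K in VGlut cells, 3.27 in the other cells, log2 difference 1.72 ± 0.18) and DIP-theta (4.69 TP10K in VGlut cells, 1.202 in the other cells, 1.81 ± 0.17) were higher in 10 of 10 libraries and called with both references. The cadherin stan (Flamingo) had 1.32 ± 0.42 TP10K in VGlut cells and 0.330 ± 0.078 TP10K in the other cells (1.93 ± 0.17, adjusted p = 2.99e-07, edgeR). Of 30 ion channel genes 1 was higher (Elk) and 2 lower (Irk2 and Irk3), and against the neuronal other cells Elk and Irk2 were not called, Irk3 was not among the genes tested, and KCNQ alone of 28 was called, lower.

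Of 31 peptide genes tested, 3 were higher (Nplp1, Mip and AstA) and 18 lower, with a median log2 difference of -2.77, where 1.63% of all genes were higher and 15.8% lower. Against the neuronal other cells 1 was higher (Nplp1) and 15 were lower of 28, where 1.42% of all genes were higher and 3.63% lower. Against VGlut clock cells Nplp1 and Mip were called higher, but AstA was called lower. Nplp1, a peptide precursor, had 2.45, 7.23 and 11.2 TP10K in VGlut cells, against 0.867, 1.39 and 3.37 TP10K in the other cells (log2 difference 2.12 ± 0.27, adjusted p = 1.43e-05, edgeR). It was spread over many cells, since 188 of 894 VGlut cells (21.03%) held 10 or more Nplp1 UMIs. At a fixed depth of 3000 UMIs, 30.6% of VGlut cells held 3 or more Nplp1 UMIs, against 12.8% of VGlut clock cells, 6.42% of the neuronal other cells and 0.169% of VAChT cells. Only 2.86% of the Vmat-rich VGlut cells did, against 39.9% of those without Vmat. Other peptides lay in small sets of cells: 10 or more UMIs were found for AstC in 67 VGlut cells, sNPF in 56, Dh31 in 48, Mip in 43, AstA in 40, Proc in 29 and Dh44 in 28. Of the 43 Mip cells 17 also held 10 or more UMIs of TwdlW, a cuticle protein family gene, and these were all 17 of the TwdlW cells. Of the 56 sNPF cells, 20 were also Dh31 cells. The call for Mip was lost without ZT06 replicate 2 (log2 difference 0.997 in place of 1.19) and against the neuronal other cells (0.90).

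For peptides that a few cells hold in great amount, sums per library followed single cells. A single cell of ZT02 replicate 2 held 3756 of the 3839 Hug UMIs of all VGlut cells, 2 cells of ZT06 replicate 2 held nearly all 1106 Capa UMIs, and 11 cells held 99.6% of the 10366 Ms UMIs. Peptides lower in VGlut cells included Crz (0, 0.0715 and 0.756 TP10K, against 0.315, 15.8 and 34.5 TP10K in the other cells; log2 difference -7.12 ± 0.35) and spab (0.0437, 0.185 and 0.345 TP10K, against 1.51, 2.06 and 3.37 TP10K in the other cells; -3.68 ± 0.16), both lower in 10 of 10 libraries. The FMRFa gene had 0 UMIs in VGlut cells, but it was present in only 2 libraries of the other cells.

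Some of the largest differences belong to neighbours of the genes that chose the cells. CG46448 (2L:2391660-2392105) lies 8189 bases from VGlut on the same strand, and had 23.7 ± 4.5 TP10K in VGlut cells, against 2.99 ± 1.21 TP10K in the other cells and 0.0542 ± 0.0392 TP10K in VAChT cells. CG14989 (3L:4087581-4092706) overlaps the Gad1 locus on the opposite strand, with no shared exon bases, and had 0.0415 ± 0.0548 TP10K in VGlut cells, against 32.1 ± 19.3 TP10K in the other cells and 396 ± 63.7 TP10K in Gad1 cells (n = 9). CG13330, higher by 2.17 ± 0.32 on the log2 scale, overlaps Vmat on the other strand. The use of strand in the counting was not stated, so none of these is given as independent of the rule or of Vmat. Several of the genes with a large negative difference had 0 UMIs in VGlut cells. Over the libraries of the other cells, Nplp3 had a lowest level of 0.00502, a median of 0.0334 and a highest of 5.36 TP10K, in ZT22 replicate 2, and with that spread no fold is given. Taken against a floor of 3 UMIs over all VGlut cells, CG8492 was at least 98.5-fold lower, the photoreceptor gene sev at least 54.6-fold and eater, a hemocyte receptor, at least 39.1-fold, by the summed UMIs of all libraries. CG15550 was lower by 8.21 ± 0.73 on the log2 scale against all other cells (0.291 TP10K in VGlut cells, 21.1 TP10K in the other cells) and had a log2 difference of 2.58 against the neuronal ones. Of its 230 UMIs in VGlut cells 221 lay in 1 cell, so the positive difference is not read as a trait of the VGlut cells.

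VGlut clock cells share the transmitter gate and differ by Clk and tim, so this comparison asks what else separates glutamatergic cells of the sort with and without these transcripts. Of 6733 genes 598 were called (8.88%), 261 higher in VGlut cells (3.88%) and 337 lower (5.01%). Vmat was the most different by fold: 207 ± 69 TP10K in VGlut cells and 0.0926 ± 0.0640 TP10K in VGlut clock cells (SD, n = 10; log2 difference 11.16 ± 0.27, adjusted p = 3.23e-13, edgeR). Tdc2 was higher by 5.73 ± 0.33, dmrt99B by 8.24 ± 0.28, Fer2 by 7.68 ± 0.44 and the eye selector gene ey by 7.24 ± 0.38. Tbh, at 3.23, 5.02 and 10.8 TP10K in VGlut clock cells, was not called (log2 difference 0.66 ± 0.35, adjusted p = 0.156, edgeR). CNMa, a peptide, was lower by 9.94 ± 0.31 on the log2 scale, at 0.0066 ± 0.0122 TP10K, against 8.32 ± 9.35 TP10K in VGlut clock cells, and the photoreceptor kinase gene inaC and the pigment gene y were lower as well. Of 66 lineage transcription factors 26 were higher and 20 lower, and of 23 peptide genes 7 were higher and 11 lower. Of the 7 higher peptides (Capa, Ms, Mip, Tk, Hug, Crz and Nplp1), Capa reached 10 or more UMIs in 2 VGlut cells, Hug and Crz in 1 each and Ms in 11.

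Of the 8 clock genes outside the rule, 5 were lower in VGlut cells than in VGlut clock cells: vri, per, cry, Pdp1 and cwo. In this order their log2 differences were -5.27 ± 0.34, -3.20 ± 0.30, -3.19 ± 0.24, -2.39 ± 0.23 and -2.17 ± 0.16. The groups did not overlap for any of the 5, as for 6.25% of the genes tested. Both groups were chosen by Clk and tim, which are clock genes too, so these differences are not given as independent of the rule. The repressor gene per had 0.0761, 0.186 and 0.481 TP10K in VGlut cells, against 0.911, 1.78 and 3.32 TP10K in VGlut clock cells, and vri had 0.0406, 0.138 and 0.541 TP10K in VGlut cells, against 2.27, 5.91 and 14.5 TP10K in VGlut clock cells. Against the other cells 0 of the 8 were called by edgeR. Of these, 3 had an unadjusted p under 0.05 (cwo, sgg and vri), with a change under 2-fold, and vri, at -0.90 ± 0.25, was called by DESeq2 at -1.15. Against the neuronal other cells vri had a log2 difference of 0.94 and was not called, and cry was called higher by 1.397 ± 0.276. Against VAChT cells, cry was higher by 3.09 ± 0.35 and vri by 1.52 ± 0.27, and both were higher against Gad1 cells. A per UMI was held by 128 of 894 VGlut cells. The summed level, 0.209 ± 0.116 TP10K in VGlut cells, was no higher than in VAChT cells, at 0.220 ± 0.052 TP10K (SD, n = 10). For the VGlut cells as a whole these UMIs are thus not read as expression. The sum hides a set of 58 cells, cluster 6 below, in which per stood at 1.25 TP10K. A cry UMI was held by 119 of the 894 cells and a vri UMI by 74.

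**Figure D3:**
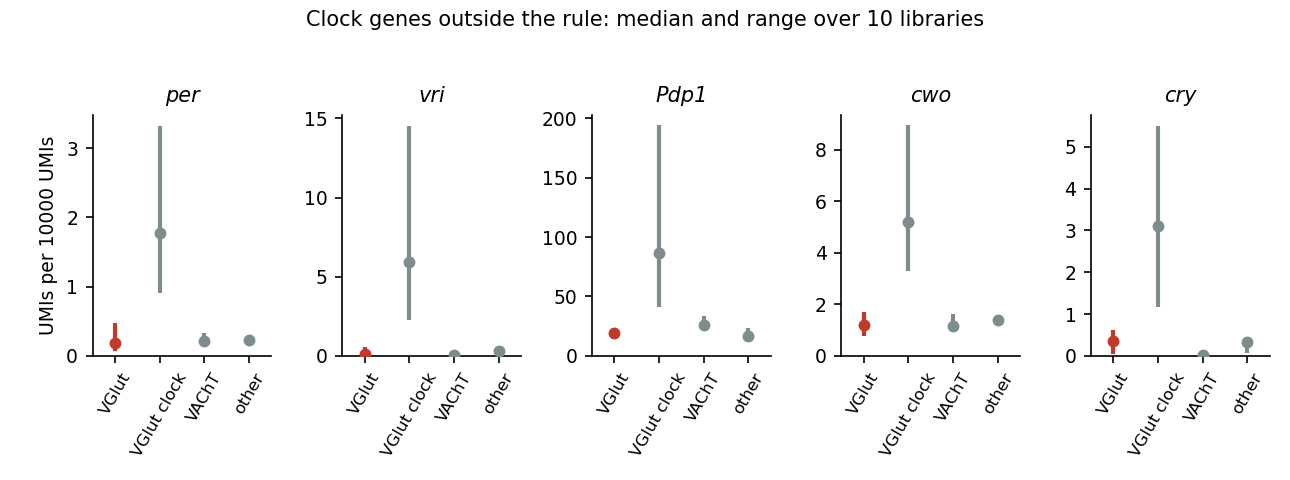
Level of per, vri, Pdp1, cwo and cry (UMIs per 10000 UMIs, linear axes from 0) in VGlut cells (red), VGlut clock cells, VAChT cells and the other cells (grey); the point is the median and the line the range over 10 libraries. VGlut cells lie below the range of VGlut clock cells for all 5 genes, with per at 0.0761 to 0.481 against 0.911 to 3.32.

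VAChT cells came from the same pool without Clk and tim UMIs. Of 6567 genes 335 were called (5.1%), 157 higher in VGlut cells (2.39%) and 178 lower (2.71%). The amine genes were again among the higher: Tdc2 by 8.93 ± 0.21 on the log2 scale, Vmat by 7.68 ± 0.80 and Tbh by 2.75 ± 0.34. Vmat had 57.8 to 317 TP10K in VGlut cells, against 0.0117, 0.219 and 11.5 TP10K in VAChT cells. The groups did not overlap for Tdc2 and Vmat, as for 2.74% of the genes tested. Mip was higher by 8.08 ± 0.33 and gl by 7.21 ± 0.38. Lower in VGlut cells were ChT, the choline transporter, by 5.60 ± 0.19, acj6 by 5.70 ± 0.26 and spab by 5.12 ± 0.13. Both groups were chosen by VAChT, so the difference in ChT is not given as independent of the choice of cells. Of 91 lineage transcription factors 13 were higher and 31 lower, and the median log2 difference of the 9 pan-neuronal markers was -0.06.

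Gad1 cells could be compared in 9 libraries, since ZT22 replicate 1 had fewer than 5 of them. Of 5676 genes 220 were called (3.88%), 148 higher in VGlut cells (2.61%) and 72 lower (1.27%). Tdc2 was higher by 9.16 ± 0.26 on the log2 scale, and gl, ap and Gsc, with 0 UMIs in Gad1 cells, were at least 39.9-fold, 25.1-fold and 21.3-fold higher. VGAT, the vesicular GABA transporter, was lower at 0.735 ± 0.247 TP10K in VGlut cells, against 4.50 ± 0.44 TP10K in Gad1 cells (log2 difference -2.68 ± 0.16, adjusted p = 2.94e-08, edgeR), and Ssadh, which degrades GABA further, was lower by 2.94 ± 0.16. Both groups were chosen by Gad1, so the differences in VGAT and Ssadh are not given as independent of the choice of cells. The kinase subunit gene Pka-C3 was lower by 4.55 ± 0.56. The 4 comparisons share the VGlut cells, so their calls are not independent of each other.

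Clustering of the 894 VGlut cells on genes other than those of the rule gave 19 clusters of 7 to 132 cells, which are described by their leading genes with no test. Clusters 2, 7, 10 and 17 held 203 of the 210 Vmat-rich cells. Cluster 7 (55 cells) had Tbh at 105 TP10K with vg and sens-2, cluster 2 (112 cells) had Fer2, rho, D and JhI-21 with 20.2 TP10K of Tdc2, cluster 10 (23 cells) had beat-Ia and the zinc finger gene tsh, and cluster 17 (13 cells) had CARPB with 37.5 TP10K of Tdc2. Cluster 1 (132 cells) was led by the homeobox genes pros (311 TP10K, against 28.9 TP10K in the remaining VGlut cells) and otp, and by dati and jim. Cluster 5 (95 cells) had twit, a gene of the Ly6 family, at 7.18 TP10K, with 57.1 TP10K of VGlut and 1.93 TP10K of gl. Clusters 11 (22 cells) and 13 (18 cells) shared Mip, at 178 and 120 TP10K, and gl, at 2.56 and 3.05 TP10K, and their cry levels of 2.56 and 1.896 TP10K lay inside the range of the VGlut clock cells, 1.17 to 5.50 TP10K, while their per, vri and Pdp1 lay below it. Cluster 9 (35 cells) had DIP-kappa, Dr, ey and grn, and cluster 14 (16 cells) had the glutamate transporter Eaat1 at 114.8 TP10K with 0 of repo. Cluster 19 (7 cells) combined sNPF at 429 TP10K with Dh31 at 216 TP10K and Trh, tryptophan hydroxylase, at 71.2 TP10K. Cluster 6 (58 cells) was led by CG18599, CG15537 and AstC (172 TP10K) and had 1.25 TP10K of per, 2.32 of vri and 61.5 of Pdp1, which lie inside the ranges of the VGlut clock cells for these genes, while its cry, at 0.184 TP10K, lies below. Its cells came from 7 libraries and mostly from the earlier times. Replicates 1 and 2 gave 2 and 24 cells at ZT02 and 5 and 10 at ZT06, and ZT10 gave 15. At ZT14 replicates 1 and 2 gave 0 and 1 cells, ZT18 gave 0, and at ZT22 they gave 1 and 0.

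The makeup differed between libraries. Cluster 1 was 28.4% of the VGlut cells of ZT02 replicate 2 and 3.51% to 16% in the other 9 libraries, and 67.4% of its cells came from that library. Cluster 3, with CG15550 (mainly 1 cell), CG4716 and CG8369 as leading genes, was 0% to 28% of a library and cluster 2 was 3.195% to 24.7%. Replicates of 1 time point differed as well: cluster 3 made up 24.2% of the VGlut cells of ZT14 replicate 1 and 4.85% of those of ZT14 replicate 2. With 25 to 313 VGlut cells in a library, a share of 1 cell is up to 4% of the smallest.

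**Figure D4:**
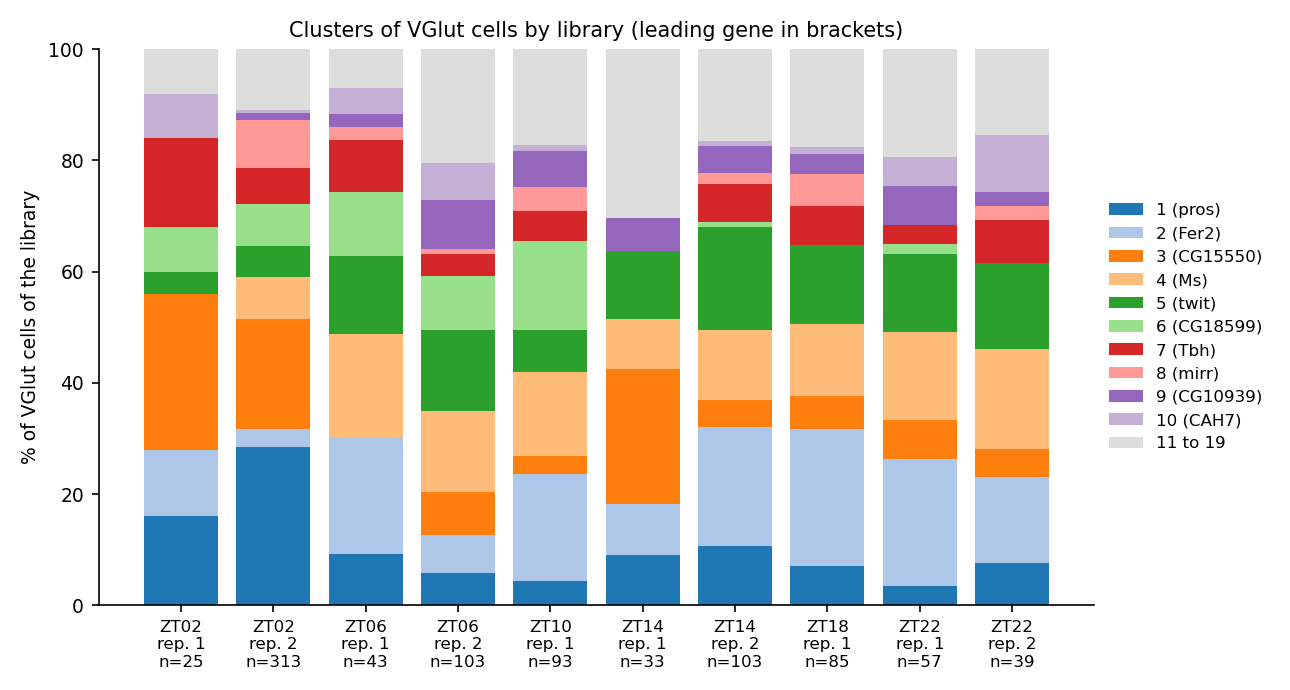
Percent of the VGlut cells of each library (n below the bar) in clusters 1 to 10 and in clusters 11 to 19 together (light grey), with the leading gene of each cluster in brackets. ZT02 replicate 2 has the highest share of cluster 1 (28.4%) and replicates of the same time differ.

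Time of day was the only condition the labels gave. The rule itself may vary with time, since it asks for 0 UMIs of Clk and tim. Over the libraries of the VGlut clock cells, tim ranged from 3.54 to 23.9 TP10K and Clk from 0.768 to 5.55 TP10K. Which cells pass the rule may thus differ between times of day, and the part of this in the fit below was not tested. A 24 h cosine was fitted to the sums of the VGlut cells over the 10 libraries, and of 5287 genes 2 were called (0.0378%; edgeR, adjusted p under 0.05), with 141 at an unadjusted p under 0.05 (2.67%). This fit does not use the date code in the library titles, which pairs ZT02 with ZT14 (both replicates), ZT06 replicate 1 with ZT18, ZT10 with ZT22 replicate 1 and ZT06 replicate 2 with ZT22 replicate 2. With that code as a block 5 genes were called and 207 had an unadjusted p under 0.05. Without it, both calls rested on 1 library each. CG15550 (3R:30936589-30937102) had 2.80 TP10K at ZT10 and 0 to 0.0362 TP10K in the other 9 libraries (adjusted p = 0.00217, edgeR), and 221 of its 222 UMIs at ZT10 lay in 1 cell. CG1552 had 0.692 TP10K in ZT02 replicate 2 and 0 in the other ZT02 library (adjusted p = 0.0173, edgeR). Without the ZT10 library 0 genes were called. DESeq2 called 1 gene of all tested, CG4577, which stood at 20.9 and 15.3 TP10K in the ZT14 libraries, 11.2 at ZT10 and 2.71 to 7.79 TP10K in the remaining 7. Its fitted swing from trough to peak was 1.89 on the log2 scale with a peak at ZT13.4, and it was not called by edgeR (adjusted p = 0.165). CG4577 was present in 531 of the 894 cells.

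Of the 8 clock genes outside the rule and the 4 activity-regulated genes, 0 were called for a rhythm by edgeR or by DESeq2. Of the 12, vri alone had an unadjusted p under 0.05 (adjusted p = 0.416, edgeR), with 0.541 TP10K in the highest library, at ZT06, and a fitted peak at ZT7.16. Cluster 6, with 2.32 TP10K of vri, was 7.67% to 16.1% of the VGlut cells in libraries at ZT02 to ZT10. At ZT14 to ZT22 it was 0% to 1.75%. The part of this change in makeup in the fitted peak was not tested. The activity-regulated gene Hr38 had 2.50 to 8.12 TP10K, and its replicates at ZT02 stood at 3.41 and 7.46 TP10K, as far apart as most times of day. Arc1, a retrotransposon-derived gene of synapses, had 3.65 TP10K at ZT18 and 4.80 TP10K in ZT22 replicate 1, but nearly all of its 312 UMIs at ZT18 lay in 1 of the 5 cells with any. Over all genes tested the median fitted swing was 0.30 on the log2 scale.

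**Figure D5:**
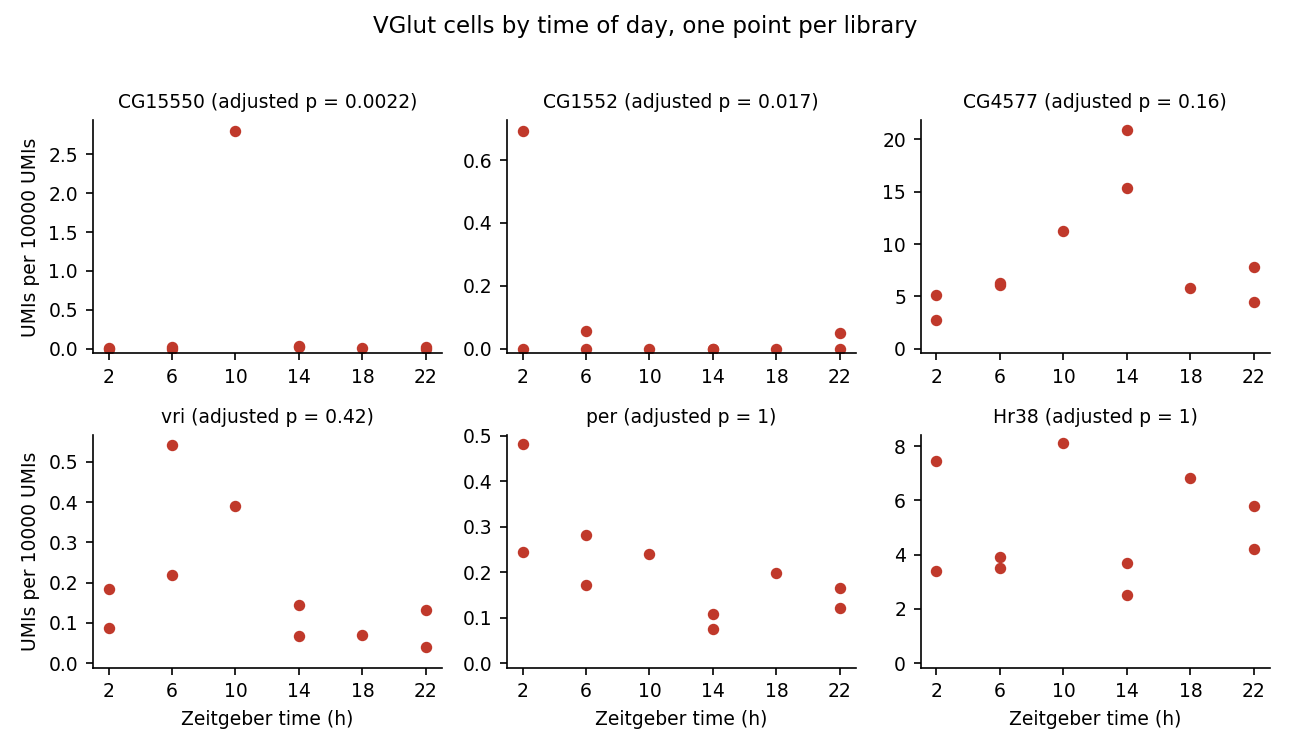
Level of 6 genes in VGlut cells (UMIs per 10000 UMIs) against time of day, 1 point for each of 10 libraries; the adjusted p in each title is from edgeR. CG15550 and CG1552 are high in 1 library each (2.80 and 0.692), CG4577 is highest in both ZT14 libraries (15.3 and 20.9), and Hr38 differs between replicates.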

How the data were processed

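Single cells were measured by 10x droplet sequencing in 10 libraries at 6 times of day. The deposited counts are UMIs per gene and cell, which the authors made with Cell Ranger (STAR) against dm6, and hold 23921 cells and 17299 genes; versions, annotation and use of strand are not given in the sources used here. Libraries held 3518519 to 32385361 UMIs. The study's methods name a doublet caller, whether before deposit was unclear, and none was run here. The 6 columns of bulk samples were not used.

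UMIs were summed per library and cell group, where a library had 5 or more cells in both groups. Genes with 100 or more counts were tested with edgeR 4.0.16 (R 4.3.3; TMM, quasi-likelihood F test, library as a block) and Benjamini-Hochberg adjustment over all of them; VGlut, VAChT, Gad1, Clk and tim were in the fit but not tested. The time of day fit had a 24 h cosine and sine. SE is the log2 difference over the root of F. Both sums of a pair came from the same library, and no more is stated on whether libraries were separate collections of flies, so p-values measure the spread between these libraries. Folds against groups at 0 use a floor of 3 UMIs over the group. Cells were clustered with scanpy 1.11.5 (Leiden). DESeq2 1.42.0 was an alternative. The limits given for counts of 0 and the folds against a floor cover counting error only, while SE and SD include the spread between libraries.

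Named genes were those of the rule, those of fixed gene lists, and the called genes of the largest fold with 1 sign in every library (15 in each direction against the other cells, 5 in the other comparisons); the 10 lowest p in the time of day test. Cuts on UMIs per cell, and genes named only for cell sets or clusters, were chosen after their values were seen. The members and lists were chosen with earlier results of these data known. Positions are from Ensembl 115 (dm6), in which 13492 of 17299 symbols were found.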

Additional observations from a re-analysis of the deposited data

Results flagged for a closer look

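A library far from the others was sought in 32 values, not all of which were of genes. For genes the value was the ratio of VGlut cells to other cells in each library, as log2 with 0.1 TP10K added to both. Of the 32 values, 3 had such a library by Dixon's criterion, which chance meets in about 5% of such groups. All 3 were of genes. Vmat stood at 8.94 in ZT02 replicate 1, against a median of 2.62 over the libraries; there 1 of 121 other cells was Vmat-rich (0.826%). CG14989 stood at -4.69 in ZT22 replicate 1, against a median of -7.76. CG15550 stood at -2.85 in ZT10 replicate 1, against a median of -7.33, and 221 of its 222 UMIs in the VGlut cells of that library lay in 1 cell.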

How the results depend on the processing

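Against the other cells, the 1369 calls became 355 with the reference limited to cells with 3 or more nSyb UMIs, an alternative chosen after seeing the data, and CG15550 turned to 2.58 there. With cells thinned to 3000 UMIs, which leaves fewer genes to test, calls were 370 against VGlut clock cells, 207 against VAChT cells and 132 against Gad1 cells. In the fits without the library block, calls were 1300, 599, 321 and 235 in these 4 comparisons, within 1.5 times the fits with it. Capa turned to -0.38 with DESeq2 and Hug to -0.38 with Clk, tim, per and cry all at 0 UMIs, both against Gad1 cells; the cause was not tested. Fits that lacked 1 library had 1249 to 1381, 562 to 606, 310 to 339 and 185 to 224 calls. Rhythm calls were 4 with genes of 20 or more counts and 167 with no filter. They were 1 with DESeq2 and 5 with the date code of the library titles as a block. With a minimum of 5000 UMIs there was 1, with 5 or more VGlut UMIs 1, with 1 or more 5, and with thinned cells 0. Fits without single libraries gave 0 to 4 rhythm calls, and 0 without ZT10 replicate 1. The call for Mip against the other cells was lost under DESeq2 (1.08), without the block (1.13), at most 15000 UMIs (1.48) and with per and cry at 0 (1.16). Tdc2, Vmat and Tbh kept their calls against the other cells in every alternative run. The smallest library had 25 VGlut cells, which limits rare sets of cells.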
